A study of Mus musculus with 21 samples.

Results

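The comparison described here is VB6 day 7 against VB6 day 5: mouse embryonic stem cells kept for 7 days with 20 µM pyridoxine, the common supplement form of vitamin B6, against cells after 5 days of it. Its members are the 6 libraries whose column names begin with V_D7 and V_D5, 3 per day, out of 21 libraries in the series. All 21 libraries were made from E14, an established mouse embryonic stem cell line. They fall into 7 groups of 3: untreated stem cells (ES), vehicle at days 3, 5 and 7, and 20 µM pyridoxine at days 3, 5 and 7. The title of the series places the work in endoderm differentiation and links it to glycolysis and lactylation of histone H3. The sources used here do not give the medium or how differentiation was started. Nothing in the labels tells whether libraries of 1 group are separate cultures. The p-values therefore measure the spread between these libraries, which may be technical. Every group comes from this 1 line. Whole cultures were sequenced, so fewer cells of a type and less RNA per cell cannot be told apart.

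Embryonic stem cells hold the pluripotent state through transcription factors such as Pou5f1, Sox2 and Nanog, and lose it stepwise as they differentiate, first into a formative epiblast-like state and then into the germ layers. Cultures of differentiating stem cells commonly form endoderm of extraembryonic type as well, whose visceral form secretes many of the proteins that the liver later makes, such as alpha-fetoprotein, transferrin and apolipoproteins. Pyridoxine is phosphorylated and oxidised in cells to pyridoxal phosphate, the cofactor of transaminases, decarboxylases and the enzymes of one-carbon and sulphur amino acid metabolism. Lactate made by glycolysis can be attached to histone lysines, a mark set and removed by acyltransferases and deacetylases.

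Depth was even, with total expected counts of 15882380 to 21629730 per library over the series (median 17972485). The day 7 libraries of the VB6 course differed from their day 5 partners in technical measures. Mean fragment length, implied by how far the effective lengths in the deposited tables fall below the annotated lengths of 578 genes with 1 transcript, was 307, 313 and 315 nt at day 5 and 263, 260 and 275 nt at day 7. Vehicle day 5 was the other short group, at 220 to 237 nt, and the remaining groups lay between 302 and 315 nt. The short libraries therefore sit at day 7 of the VB6 course and at day 5 of the vehicle course. Because of this, each comparison was also fitted with a per-library correction for GC content and transcript length, and that value is given as "corrected" beside each result. Where a gene is followed by a pair of values alone, they are its uncorrected and corrected log2 fold change of day 7 over day 5. Between libraries of 1 group, counts differed by more than sampling noise in each pair (chi-square per gene of 3.06 to 8.64), so no library was a copy of another.

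**Figure D1:**
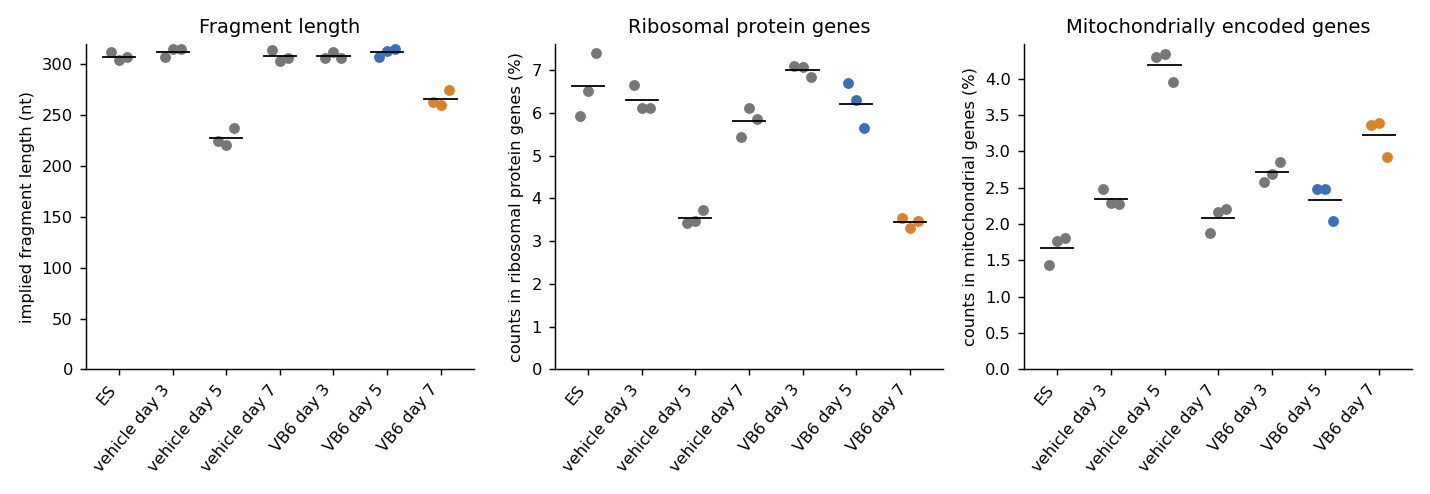
Implied fragment length in nt (left), the share of counts in ribosomal protein genes (middle) and the share in mitochondrially encoded genes (right), both in percent, for each of the 21 libraries; each point is a library and each line a group mean. VB6 day 7 (orange) had shorter fragments than VB6 day 5 (blue), a lower ribosomal protein share (3.31 to 3.54% against 5.66 to 6.69%) and a higher mitochondrial share (2.92 to 3.39% against 2.04 to 2.49%), and vehicle day 5 stood on the same side in all 3 measures.

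Between day 5 and day 7 with VB6, 10309 of 18901 genes tested changed, which is 54.5% of them. A gene is called changed where the Benjamini-Hochberg adjusted p of edgeR's quasi-likelihood test is below 0.05. The calls were balanced, with 5156 genes higher (27.3%) and 5153 lower (27.3%) at day 7. After correction, which was possible for 17398 genes, 9503 were called (54.6%), of which 4785 were higher (27.5%) and 4718 lower (27.1%). In both fits, 3720 genes were called higher and 3721 lower, while 96 genes turned from higher to lower with the correction and 65 from lower to higher. Changes of at least 2-fold were fewer, at 1097 genes higher and 1710 lower. For 11228 genes (59.4%) the 3 libraries of day 7 did not overlap the 3 of day 5. On TPM values, which are scaled per length, 75.7% of calls were higher against 50.01% on counts, and the median over all genes moved to 0.21 on the log2 scale, so small changes in either direction depend on the scale.

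Among protein-coding genes with at least 5 CPM in the higher group and no overlap between groups, the 12 largest rises called in both fits included genes of the matrix and transcription factors of patterning. Postn, which encodes the matrix protein periostin (chr3:54361109-54391037, mm10), went from 0.28, 0.336 and 0.312 CPM at day 5 to 23.98, 29.1 and 38.1 CPM at day 7. Its log2 fold change 6.58 ± 0.29 (SE), 6.36 corrected, with adjusted p = 1e-12 (edgeR), made it the leading gene by the rule used (CPM are counts scaled to library size), and day 5 rested on 17 counts over the 3 libraries. Col1a2, a chain of type I collagen (chr6:4504814-4541544), rose from 13.98, 15.3 and 18.9 CPM at day 5 to 287, 322 and 459.6 CPM at day 7. The log2 fold change 4.47 ± 0.16 (SE), 4.19 corrected came with adjusted p = 1.2e-15, and the lowest day 7 library was far above the highest of day 5. Col3a1, the type III collagen chain, rose from 0.224, 0.192 and 0.375 CPM at day 5 to 5.6, 9.05 and 11.5 CPM at day 7 (log2 fold change 5.05 ± 0.41 (SE), 4.83 corrected). Other matrix and growth factor binding genes among the 12 largest rises were Col8a1 (4.5, 4.14 corrected) and the insulin-like growth factor binding proteins Igfbp1 (5.29, 5.39 corrected) and Igfbp5 (4.58, 4.36 corrected). Genes of the developing nervous system, kidney and eye were also there: the transcription factors Pax3 (4.32, 4.09 corrected) and Pax2 (4.39, 4.63 corrected), and Mab21l2 (4.62, 4.56 corrected). Robo2, an axon guidance receptor (4.71, 4.42 corrected), Pmp22, a myelin membrane protein (4.59, 4.81 corrected), and Vnn1, a pantetheine hydrolase (4.42, 4.3 corrected), completed the set. The value of Mab21l2 was 5.37 without VB6 day 5 library 2, and that of Pax2 was 5.28 without VB6 day 5 library 1. All 12 were also called higher in the vehicle course from day 5 to day 7. The uncorrected vehicle rise was 3.62 for Robo2, 3.56 for Igfbp5 and 6.06 for Postn, below their rises with VB6. It was 6.5 for Igfbp1, 5.58 for Col3a1 and 5.99 for Col1a2, above their rises with VB6. For Col1a2 the difference between the courses was called lower with VB6 in both fits (-1.52, -2.13 corrected).

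Genes of Nodal inhibition and epiblast priming were among the 12 largest falls. Lefty1, a secreted inhibitor of Nodal signalling, fell from 27.2, 28.98 and 26.7 CPM at day 5 to 1.81, 4.16 and 3.24 CPM at day 7 (log2 fold change -3.16 ± 0.17 (SE), -2.62 corrected, adjusted p = 5.4e-13). Tcf15, a basic helix-loop-helix factor linked to epiblast priming and paraxial mesoderm, dropped from 7.38, 6.67 and 6.06 CPM at day 5 to 0.663, 0.506 and 0.744 CPM at day 7 (log2 fold change -3.38 ± 0.21 (SE), -2.58 corrected). Rhbg, an ammonium transporter, had 8.11, 9.5 and 8.94 CPM at day 5 and 0.663, 0 and 0.691 CPM at day 7 (-4.28, -4.05 corrected). Ltb, the lymphotoxin beta gene (-3.62, -2.98 corrected), Dok2, an adaptor of tyrosine kinase signalling (-3.52, -3.09 corrected), Trim67 (-3.49, -3.46 corrected), Tmem154 (-3.3, -3.48 corrected) and Kbtbd11 (-3.25, -3.31 corrected) fell as well, and Dok2 had -4.18 without VB6 day 7 library 3. For Lefty1 and Tcf15 the fall was larger than in the vehicle course, where the log2 fold changes were -0.54 and -0.1 (-1.38 and -1.29 corrected). The differences between the courses were called in both fits, at -2.62, -1.24 corrected for Lefty1 and -3.28, -1.29 corrected for Tcf15. They were also called lower in both fits for Rhbg (-2.13, -1.45 corrected), Ltb (-2.52, -0.92 corrected), Trim67 (-1.7, -1.25 corrected) and Kbtbd11 (-1.26, -1.05 corrected). In uncorrected CPM, all of these genes had higher means with VB6 than with vehicle at day 5, and lower means at day 7. Lefty1 had means of 27.6 CPM with VB6 and 15.8 CPM with vehicle at day 5, and 3.07 and 10.8 CPM at day 7. Day 5 means of Tcf15 were 6.7 CPM with VB6 and 2.27 CPM with vehicle. Vehicle day 5 had the shortest fragments, and its part in these day 5 gaps was not tested. The other 4 of the 12 largest falls, Erhrt-ps, Ftl1-ps1, Srp54b and Exosc6, were low in both groups with short fragments and are described with the copied genes further on.

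**Figure D2:**
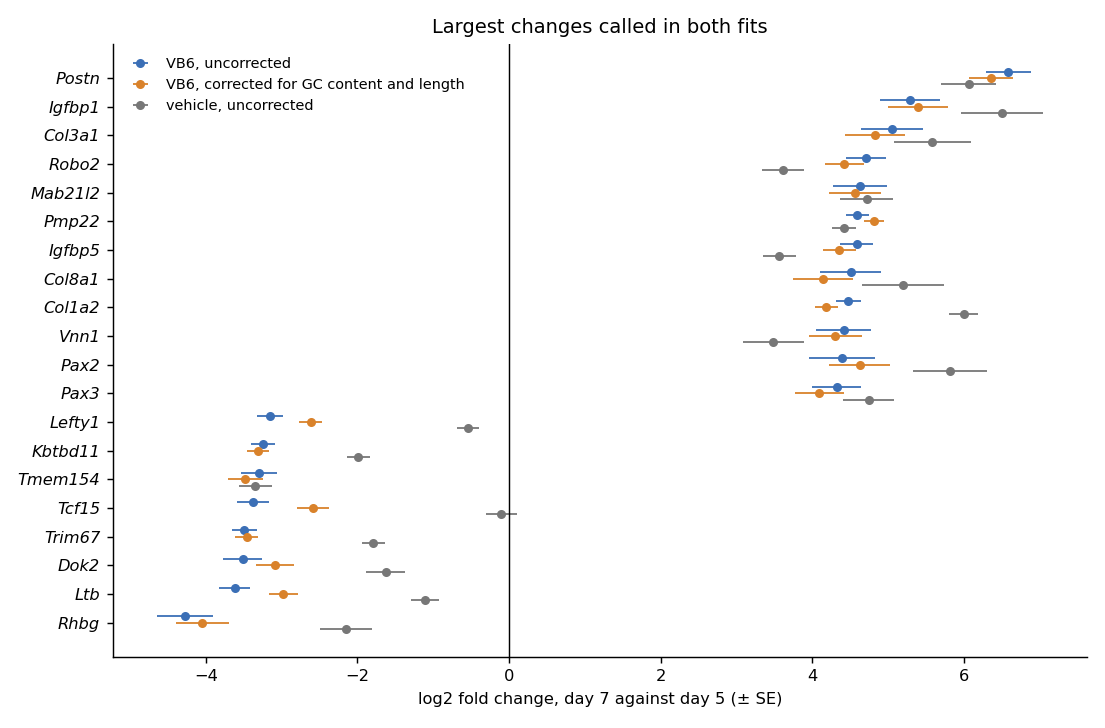
Log2 fold change of day 7 against day 5 (x axis, bars are standard errors) of the 12 largest rises and 8 of the 12 largest falls called in both fits, for VB6 uncorrected (blue), VB6 corrected (orange) and vehicle uncorrected (grey). Postn leads at 6.58, and the vehicle values of the rises lie on the same side. The falls of Lefty1, Tcf15, Rhbg, Ltb, Trim67 and Kbtbd11 are larger with VB6 than with vehicle, and start from higher uncorrected day 5 means with VB6. The 4 genes that also had the largest differences from vehicle are left out.

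The labels call the cells embryonic stem cells, and the defining markers of that state were present at day 5 and much lower at day 7. Pou5f1 (chr17:35506018-35510772), the core pluripotency factor, fell from 257, 266 and 283 CPM at day 5 to 38.9, 47.5 and 45.05 CPM at day 7. That is a 6.13-fold change (log2 fold change -2.62 ± 0.08 (SE), -2.32 corrected, adjusted p = 2.2e-16), with no overlap between the days. Sox2, its partner and also a neural progenitor factor, fell from 130.5, 131 and 141 CPM at day 5 to 56.9, 66.9 and 77.5 CPM at day 7 (log2 fold change -0.99 ± 0.1 (SE), -1.01 corrected), and Nanog from 95.9, 108 and 102 CPM at day 5 to 40.8, 58.2 and 48.3 CPM at day 7 (log2 fold change -1.05 ± 0.09 (SE), -1.22 corrected). The 6 stem cell markers summed to 743 to 831 CPM at day 5 and 202 to 246 CPM at day 7, against 2485 to 2876 CPM in ES. Thus the culture at both days was well below untreated stem cells, and lower at day 7. Among 20 general pluripotency genes, 2 rose and 17 fell (1 and 17 corrected), with a median log2 fold change of -1.02 (-1.03 corrected) against -0.01 over all genes. Examples were Utf1 (-2.74, -2.07 corrected), L1td1, an RNA-binding protein of stem cells (-1.88, -1.98 corrected), Dnmt3b, a DNA methyltransferase of the early epiblast (-1.54, -1.62 corrected), and Cripto, the Nodal co-receptor (-2.23, -2.3 corrected).

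**Figure D3:**
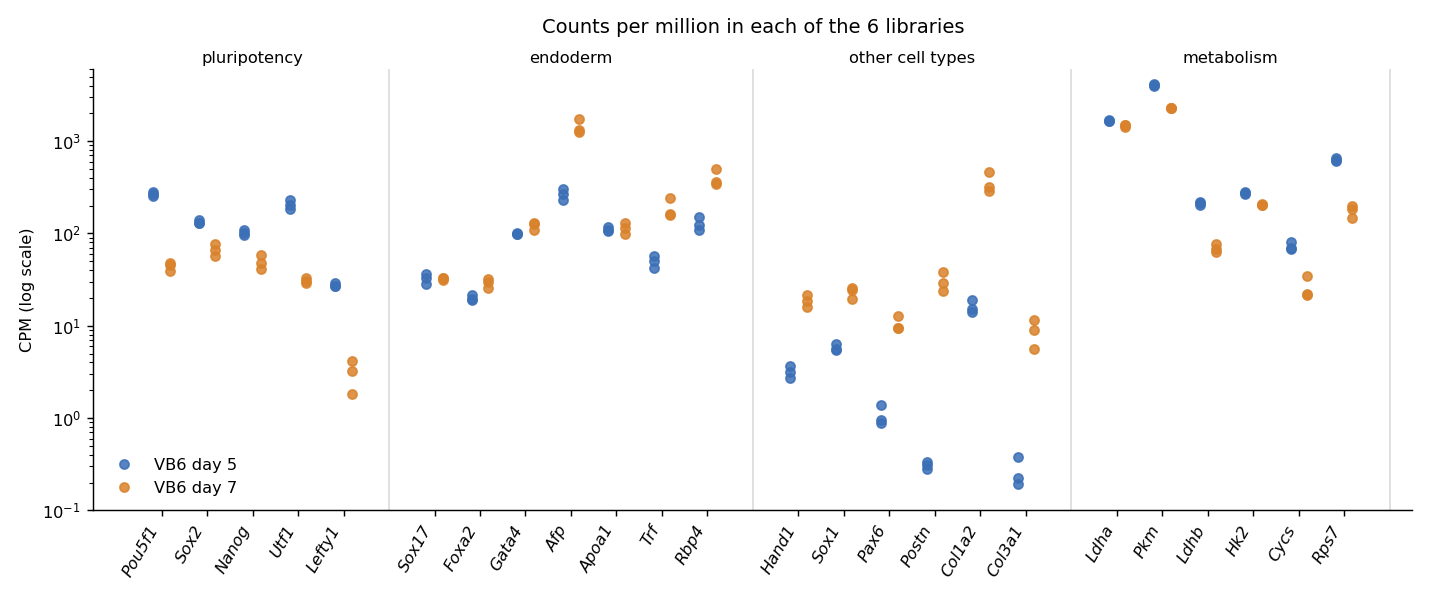
CPM (counts scaled to library size, log axis) of selected genes in each of the 3 libraries of VB6 day 5 (blue) and VB6 day 7 (orange). The pluripotency genes are lower at day 7 without overlap, Afp, Trf and Rbp4 are higher without overlap, Sox17 and Apoa1 overlap, and the mesoderm, neural and stromal genes rise from low levels.

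Genes of the formative epiblast fell with them, while naive genes split. In the formative and primed list 3 of 18 genes tested rose and 13 fell (4 and 12 corrected). Fgf5, a growth factor that marks this state, fell from 116, 120.4 and 118 CPM at day 5 to 19.04, 26.4 and 26.9 CPM at day 7 (log2 fold change -2.29 ± 0.09 (SE), -2.26 corrected). Pou3f1 (-2.54, -2.19 corrected), Zic5 (-1.68, -1.88 corrected) and Otx2 (-1.1, -1.1 corrected), transcription factors of the same state and of the anterior nervous system, were lower too. Epha4, an ephrin receptor used again in mesoderm and neural tissue, was a called rise in the list (1.83, 1.56 corrected). Of 16 naive genes, 2 rose and 6 fell (3 and 5 corrected), against 27.3% of all genes called each way. Klf2, a naive factor, fell (-1.75, -1.33 corrected), as did Esrrb (-0.73, -0.64 corrected) and Fgf4 (-1.24, -1.26 corrected), while Stat3, the mediator of leukaemia inhibitory factor signalling, rose (0.57, 0.49 corrected). Germ cell genes, active at a low level in stem cells, fell in 9 of 14 genes in either fit and rose in none, with Sycp3, a meiotic chromosome protein, going from 88.1, 84.6 and 69.2 CPM at day 5 to 34.2, 44.3 and 34.3 CPM at day 7 (-1.1, -0.98 corrected).

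Endoderm genes moved unequally: secreted products rose strongly, and the transcription factors that define endoderm moved little. Afp (chr5:90490737-90508907), the major serum protein of the visceral yolk sac, rose from 301, 267 and 229 CPM at day 5 to 1738, 1316 and 1261 CPM at day 7. This is a 5.41-fold rise (log2 fold change 2.44 ± 0.12 (SE), 2.28 corrected, adjusted p = 7.1e-13), and the lowest day 7 library was far above the highest day 5 library. Trf, which encodes the iron carrier transferrin, rose from 56.7, 49.7 and 42.1 CPM at day 5 to 241, 162 and 157 CPM at day 7 (log2 fold change 1.91 ± 0.13 (SE), 2.04 corrected). Fgb, the fibrinogen beta chain (1.95, 1.64 corrected), Apob, the protein of very low density lipoprotein (1.49, 1.1 corrected), Rbp4, the retinol carrier (1.65, 2.25 corrected), and Ttr, the thyroxine carrier transthyretin (0.94, 1.03 corrected), rose too. In the list of visceral endoderm and hepatic secretion 17 of 25 genes tested rose and 1 fell (20 and 0 corrected), with a median log2 fold change 0.89, 1.04 corrected. Not all members moved. Apoa1, an apolipoprotein of high density lipoprotein, had 118, 108 and 107 CPM at day 5 and 131, 97.8 and 116 CPM at day 7 (log2 fold change 0.04 ± 0.1 (SE), 0.48 corrected), which was called only after correction (edgeR adjusted p = 0.73 uncorrected and 1.5e-05 corrected). Hnf4a, the hepatic nuclear receptor, was called in neither fit (-0.06, -0.01 corrected).

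Sox17, the endoderm transcription factor, was not called in the uncorrected fit. It had 28.1, 33.1 and 36.3 CPM at day 5 and 32.96, 32.8 and 30.97 CPM at day 7, with overlapping libraries (log2 fold change -0.01 ± 0.11 (SE), 0.38 corrected, edgeR adjusted p = 0.95 uncorrected and 0.0015 corrected). Foxa2, the pioneer factor of endoderm, rose from 19.5, 19.1 and 21.5 CPM at day 5 to 32.05, 29.6 and 25.6 CPM at day 7 (log2 fold change 0.54 ± 0.11 (SE), 0.87 corrected). Gata4 (0.3, 0.41 corrected) and Gata6 (0.35, 0.59 corrected), which start the primitive endoderm programme, rose by less, and without the first VB6 day 7 library Gata6 was not called (log2 fold change 0.27, edgeR adjusted p = 0.058). Cxcr4, a chemokine receptor used to sort definitive endoderm, rose at a low level, from 1.12, 1.49 and 0.75 CPM at day 5 to 3.07, 3.49 and 4.41 CPM at day 7 (1.68, 1.79 corrected). In the definitive endoderm list 12 of 20 genes tested rose and 4 fell (14 and 4 corrected). Members with the strongest evidence included Cpm, a membrane carboxypeptidase (1.67, 1.52 corrected), on the rising side, and Trh, the thyrotropin-releasing hormone gene (-1.75, -1.47 corrected), and Epcam (-0.66, -0.34 corrected) on the falling side. The 4 endoderm markers Sox17, Foxa2, Gata4 and Gata6 summed to 173 to 182 CPM at day 5 and 197 to 234 CPM at day 7, and the ES libraries had 22.01 to 28.7 CPM. The 5 visceral markers Afp, Ttr, Apoa1, Cubn and Amn summed to 1368 to 1597 CPM and 2724 to 3424 CPM, most of the rise coming from Afp. Amn, the membrane anchor of cubilin, went from 103, 110 and 109 CPM to 81.2, 65.9 and 71.9 CPM and was called lower without correction and not with it.

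The basement membrane and endocytic parts of the extraembryonic programme rose by smaller amounts. In the list of primitive and parietal endoderm 15 of 19 genes tested rose and 2 fell (16 and 1 corrected), with a median log2 fold change 0.71, 0.83 corrected. Col4a1, a type IV collagen chain, rose from 815, 863 and 893 CPM at day 5 to 1725, 1559 and 1481 CPM at day 7 (log2 fold change 0.89 ± 0.11 (SE), 0.85 corrected). Nid1, which links laminin to type IV collagen (1.36, 1.12 corrected), Lama1, a laminin chain (0.67, 0.59 corrected), Pdgfra, the receptor that marks primitive endoderm and mesenchyme (1.17, 0.96 corrected), and Fst, the activin-binding follistatin (2.12, 2.03 corrected), rose as well. Among 18 genes of endocytosis and lysosomal uptake, 9 rose and 4 fell (10 and 4 corrected). The falls depended on the fit, since 8 genes were called higher in both fits but only 1 lower. Cubn, the uptake receptor cubilin, was higher in the uncorrected fit and not after correction (0.42, 0.0 corrected), whereas Dab2, its adaptor, was called in both (0.45, 0.21 corrected). The lysosomal protease Lgmn rose from 416, 404 and 368 CPM at day 5 to 833, 756 and 675 CPM at day 7 (0.93, 0.94 corrected), and Lamp1 (0.57, 0.48 corrected) and Lamp2 (1.13, 0.86 corrected), membrane proteins of the lysosome, rose with it. Of 15 intestinal, pancreatic and lung endoderm genes tested, 11 were called higher and 1 lower in either fit, most from low counts. Nkx6-1, a pancreatic and neural factor, went from 0.168, 0.096 and 0.188 CPM at day 5 to 3.56, 2.7 and 5.21 CPM at day 7, and Cdx2, a factor of hindgut and trophoblast, from 2.8, 2.73 and 3.38 CPM at day 5 to 7.83, 4.27 and 4.99 CPM at day 7 (0.94, 1.16 corrected).

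Mesoderm, stroma and neural markers rose beside endoderm. In the mesoderm list 13 of 17 genes tested rose and 1 fell (16 and 1 corrected), with a median log2 fold change 1.53, 1.78 corrected. Hand1, a factor of extraembryonic and lateral mesoderm, rose from 2.69, 3.12 and 3.62 CPM at day 5 to 18.6, 15.9 and 21.8 CPM at day 7 (log2 fold change 2.58 ± 0.18 (SE), 2.89 corrected). Kdr, the endothelial growth factor receptor of mesoderm, rose from 0.671, 0.768 and 0.688 CPM at day 5 to 4.22, 3.99 and 6.27 CPM at day 7 (2.75, 2.47 corrected), and T, the brachyury gene, rose from a low level with a wide spread, from 1.4, 1.39 and 0.625 CPM at day 5 to 2.65, 6.07 and 6.69 CPM at day 7 (2.15, 2.34 corrected). Eomes, another streak gene, fell (-0.86, -0.75 corrected). The 4 mesoderm markers Hand1, Kdr, Tbx20 and Foxf1 summed to 6.16 to 7.56 CPM at day 5 and 29.4 to 37.5 CPM at day 7. Of 31 fibrillar collagen and stromal genes, 23 were higher (24 corrected) and 2 lower in either fit. Vim, the mesenchymal intermediate filament (2.4, 2.58 corrected), Fn1, fibronectin (1.47, 1.34 corrected), and Col1a1 (2.69, 2.61 corrected) were among them. Of the muscle list, 8 genes rose and 5 fell of 20 (9 and 5 corrected), against 27.3% of all genes called each way. Acta2, smooth muscle actin, rose from 34.3, 38.96 and 40.9 CPM at day 5 to 205, 238 and 254 CPM at day 7 (2.61, 2.62 corrected). Myh7, a cardiac and slow-muscle myosin, rose (2.26, 2.33 corrected), and Cnn1, calponin, fell (-1.05, -0.83 corrected).

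Most neural ectoderm genes rose, with 14 of 21 higher and 6 lower in either fit. The markers Sox1, Pax6 and Tubb3 summed to 11.6 to 15.1 CPM at day 5 and 31.97 to 42.7 CPM at day 7, and Tubb3, a neuronal tubulin, was called lower in both fits (4.52 to 7.81 CPM at day 5 and 2.86 to 3.84 CPM at day 7). Sox1, the earliest neural plate factor, rose from 5.65, 5.52 and 6.38 CPM at day 5 to 19.4, 24.2 and 25.4 CPM at day 7 (log2 fold change 1.98 ± 0.16 (SE), 2.01 corrected). Pax6, a forebrain and eye factor, rose from 1.4, 0.96 and 0.875 CPM at day 5 to 9.46, 9.39 and 12.8 CPM at day 7 (log2 fold change 3.28 ± 0.22 (SE), 3.24 corrected). On the other side Nes, an intermediate filament of progenitors that stem cells also express, fell from 118, 125 and 146 CPM at day 5 to 30.3, 37.2 and 39.4 CPM at day 7 (-1.86, -1.79 corrected). Neural crest genes were few: Tfap2a rose (2.7, 2.81 corrected), and Foxd3, shared by crest and pluripotent cells, fell (-2.98, -2.5 corrected). Of 10 trophoblast genes tested, 7 rose and 2 fell (8 and 1 corrected), including Krt7 (2.04, 2.18 corrected), Esx1 (1.67, 1.91 corrected) and Gata3 (1.88, 1.95 corrected), but the defining placental genes Prl3d1 and Tpbpa had no counts in the 6 libraries. The sum of these with Elf5 and Plac1 was 1.30 to 1.57 CPM at day 5 and 3.65 to 4.85 CPM at day 7. Blood markers were at or near 0: Hbb-y and Ptprc had no counts, Hba-x had 1 count in 1 library, and Gata1 fell from 2.07, 1.06 and 2.0 CPM at day 5 to 0.482, 0.731 and 0.266 CPM at day 7 (-1.77, -1.64 corrected). Epithelial genes split, with 8 higher and 11 lower of 22 (9 and 9 corrected), against 27.3% of all genes called each way. Cdh1, E-cadherin, fell from 711, 718 and 830.0 CPM at day 5 to 443, 442 and 443 CPM at day 7 (-0.77, -0.84 corrected).

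Among signalling genes, most BMP and retinoid members rose, and the Nodal, Wnt, FGF, Hedgehog and Notch lists held calls in both directions. Over all genes tested, 27.3% were called higher and 27.3% lower, so calls both ways are not particular to these lists. For BMP, 17 of 21 genes tested rose and none fell (16 and none corrected). Among ligands, Bmp4 rose from 5.03, 6.72 and 9.0 CPM at day 5 to 33.5, 36.2 and 43.1 CPM at day 7 (log2 fold change 2.45 ± 0.17 (SE), 2.76 corrected) and Bmp5 appeared from near 0 (5.78, 5.5 corrected). The antagonist Nog rose from 1.4, 1.2 and 2.0 CPM at day 5 to 12.9, 17.9 and 19.8 CPM at day 7 (3.48, 3.74 corrected), and the target genes Id2 (1.26, 1.33 corrected) and Msx2 (1.75, 1.78 corrected) rose too. Of 20 Nodal and activin genes, 6 rose and 8 fell (7 and 7 corrected), and the falls included the ligand Gdf3 (-2.75, -2.7 corrected), the co-receptor Cripto and the inhibitors Lefty1 and Lefty2 (-2.25, -1.95 corrected). In the Wnt list 8 of 25 genes tested rose and 9 fell (13 and 8 corrected): the secreted antagonists Frzb (2.88, 2.75 corrected) and Dkk1 (1.91, 1.73 corrected) rose, and Sfrp2 (-0.88, -0.63 corrected) and the nuclear effector Tcf7 (-0.85, -0.74 corrected) fell. For FGF, 5 rose and 8 fell of 21 (6 and 10 corrected). Etv5, a transcriptional target of ERK, fell (-0.81, -0.87 corrected), and Dusp5, an ERK phosphatase, rose (1.07, 1.25 corrected). Hedgehog and Notch genes were 8 higher and 5 lower of 21 (11 and 6 corrected), with Gli3 (1.13, 1.03 corrected), Ptch1 (0.67, 0.41 corrected) and Jag1 (1.17, 0.93 corrected) rising and Jag2 (-0.86, -0.58 corrected) falling. Of 16 retinoid genes, 11 were higher and 3 lower (11 and 2 corrected), the rises including Aldh1a2, the enzyme that makes retinoic acid (3.38, 3.35 corrected), and Crabp1, its binding protein (2.5, 3.11 corrected).

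Most genes of glycolysis, which the title of the series names, were lower at day 7 than at day 5 on counts, while on TPM values the median of the list was 0.02 above day 5, or -0.19 relative to all genes. In the list of glycolysis and lactate genes 4 of 24 genes tested rose and 18 fell (4 and 16 corrected), with a median log2 fold change -0.4, -0.32 corrected. Pkm, pyruvate kinase, fell from 3939, 4044 and 4143 CPM at day 5 to 2277, 2260 and 2287 CPM at day 7 (log2 fold change -0.83 ± 0.06 (SE), -0.73 corrected, adjusted p = 1.5e-10). Ldhb, the lactate dehydrogenase subunit of oxidative tissues, fell from 219.5, 215 and 204 CPM at day 5 to 63.7, 77.4 and 68.6 CPM at day 7 (log2 fold change -1.6 ± 0.08 (SE), -1.35 corrected). The libraries of the 2 days did not overlap for either gene. Ldha, the subunit that favours lactate production, had 1639, 1685 and 1634 CPM at day 5 and 1507, 1439 and 1480 CPM at day 7. Its difference was small and depended on the fit (log2 fold change -0.16 ± 0.05 (SE), -0.01 corrected, edgeR adjusted p = 0.0059 uncorrected and 0.79 corrected), and on the log2(TPM + 1) scale it was 0.29 higher. Hk2, hexokinase, fell (-0.41, -0.52 corrected), and so did Slc2a1, the main glucose transporter (-0.25, -0.17 corrected), by little, with a TPM value of 0.04 that was not called. Pdk1, which inhibits pyruvate dehydrogenase, fell (-0.73, -0.93 corrected). Pfkfb3, which activates phosphofructokinase, rose from 122, 115 and 129 CPM at day 5 to 238, 234 and 195 CPM at day 7 (0.87, 0.77 corrected). On TPM values Pdk1 was 0.08 higher.

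Enzymes that set or remove histone acylation moved little. Of 18 genes of this kind, 2 rose and 10 fell (2 and 8 corrected), with a median log2 fold change -0.21, -0.16 corrected and 0.12 on TPM values. Ep300, an acetyltransferase that can add lactyl groups, had 234, 237 and 256 CPM at day 5 and 258, 259 and 252 CPM at day 7 (log2 fold change 0.08 ± 0.06 (SE), -0.25 corrected), and was called lower only after correction (edgeR adjusted p = 0.25 uncorrected and 0.00057 corrected). Aars1, the alanyl-tRNA synthetase described as a lactyltransferase, fell from 300.5, 310.2 and 339 CPM at day 5 to 224, 217 and 225 CPM at day 7 (log2 fold change -0.51 ± 0.07 (SE), -0.67 corrected). Its annotated span holds that of Exosc6 on the same strand, so counts may be divided between these genes. Kat2a, an acetyltransferase (-0.48, -0.32 corrected), and Hdac1, a deacetylase (-0.38, -0.35 corrected), fell, and Hdac2 rose (0.35, 0.17 corrected). Of 28 citric acid cycle genes, 9 were higher and 9 lower (9 and 11 corrected), near the 27.3% of all genes called in each direction. Pdha1, the pyruvate dehydrogenase subunit (0.38, 0.2 corrected), and Cs, citrate synthase (0.28, 0.17 corrected), rose slightly, and Mdh2 (-0.54, -0.23 corrected) and Idh3a (-0.34, -0.54 corrected) fell, the last being 0.16 higher on TPM values.

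Of 10 genes of vitamin B6 uptake and salvage, 3 rose and 3 fell (3 and 2 corrected), near the share of all genes called in each direction (27.3%), and those named here changed by less than 2-fold. Pdxk, the kinase that phosphorylates pyridoxine, fell from 25.5, 27.4 and 27.9 CPM at day 5 to 19.04, 21.1 and 18.1 CPM at day 7 (log2 fold change -0.47 ± 0.08 (SE), -0.54 corrected, adjusted p = 3.9e-05). Alpl, the alkaline phosphatase that frees pyridoxal outside cells and marks stem cells, fell (-0.77, -0.63 corrected), while Plpbp, a pyridoxal phosphate binding protein (0.39, 0.3 corrected), and Phospho2, a phosphatase (0.52, 0.44 corrected), rose. Of the enzymes that use the cofactor, 9 of 38 rose and 21 fell (9 and 19 corrected), with a median log2 fold change of -0.23, -0.16 corrected and 0.12 on TPM values. Cbs, the first enzyme of transsulphuration, fell from 24.8, 26.8 and 24.8 CPM at day 5 to 6.33, 6.86 and 6.96 CPM at day 7 (log2 fold change -1.92 ± 0.12 (SE), -1.78 corrected), and Cth, the second, fell with it (-1.1, -1.24 corrected). Bcat2, the mitochondrial branched-chain transaminase (-1.22, -0.98 corrected), and Odc1, which starts polyamine synthesis (-0.54, -0.64 corrected), were lower as well. Of 23 serine, glycine and folate genes, 15 were lower and 4 higher (16 and 5 corrected), with Mthfd1 (-0.91, -0.98 corrected), Mthfd1l (-0.78, -0.9 corrected), Gcat (-1.01, -0.72 corrected) and the glutamine transporter Slc1a5 (-1.0, -0.91 corrected) as examples.

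Most cytosolic ribosomal protein genes and most nuclear genes of the respiratory chain fell in both fits, though fewer and by less with the correction. This moved with the fragment length of the libraries. Of 85 cytosolic ribosomal protein genes, 1 rose and 82 fell (1 and 75 corrected), and the median log2 fold change was -0.88, or -0.45 corrected. Rps7 (chr12:28630854-28635953), a small-subunit protein, fell from 662, 610.0 and 618 CPM at day 5 to 184, 148 and 199 CPM at day 7 (log2 fold change -1.83 ± 0.08 (SE), -1.59 corrected), and Rpl3, a large-subunit protein, fell from 783, 785 and 752 CPM at day 5 to 326, 278 and 324 CPM at day 7 (log2 fold change -1.32 ± 0.06 (SE), -1.1 corrected). Of 41 nuclear genes of oxidative phosphorylation, none rose and 35 fell without correction, while 6 rose and 26 fell with it (median -0.58 and -0.20). Cycs, cytochrome c, fell from 69.5, 80.1 and 68.2 CPM at day 5 to 22.1, 21.5 and 34.2 CPM at day 7 (log2 fold change -1.48 ± 0.15 (SE), -1.73 corrected), and Atp5po (-0.58, -0.18 corrected), Cyc1 (-0.73, -0.25 corrected) and Ndufb8 (-0.74, -0.15 corrected) fell too. In the vehicle course the same lists moved the other way, with 77 of 85 ribosomal and 34 of 41 respiratory genes higher at day 7 (66 and 29 corrected) and medians of 0.78 and 0.63, and that course has its short libraries at day 5. The ribosomal protein share of counts was 3.43 to 3.73% in vehicle day 5 and 3.31 to 3.54% in VB6 day 7, and above 5.4% in the other groups. Many of these genes have processed pseudogenes, so their counts are uncertain; the part of fragment length in the result was not tested beyond the correction. Of 13 mitochondrially encoded genes, 3 rose and 3 fell (6 and 2 corrected), against 27.3% of all genes called each way. Among them mt-Nd5 (0.5, 0.41 corrected), mt-Nd4 (0.4, 0.44 corrected) and mt-Co1 (0.67, 0.6 corrected) were higher and mt-Nd3 was lower (-1.29, -0.75 corrected). With vehicle mt-Co1 moved the other way (-1.08, -0.27 corrected).

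**Figure D4:**
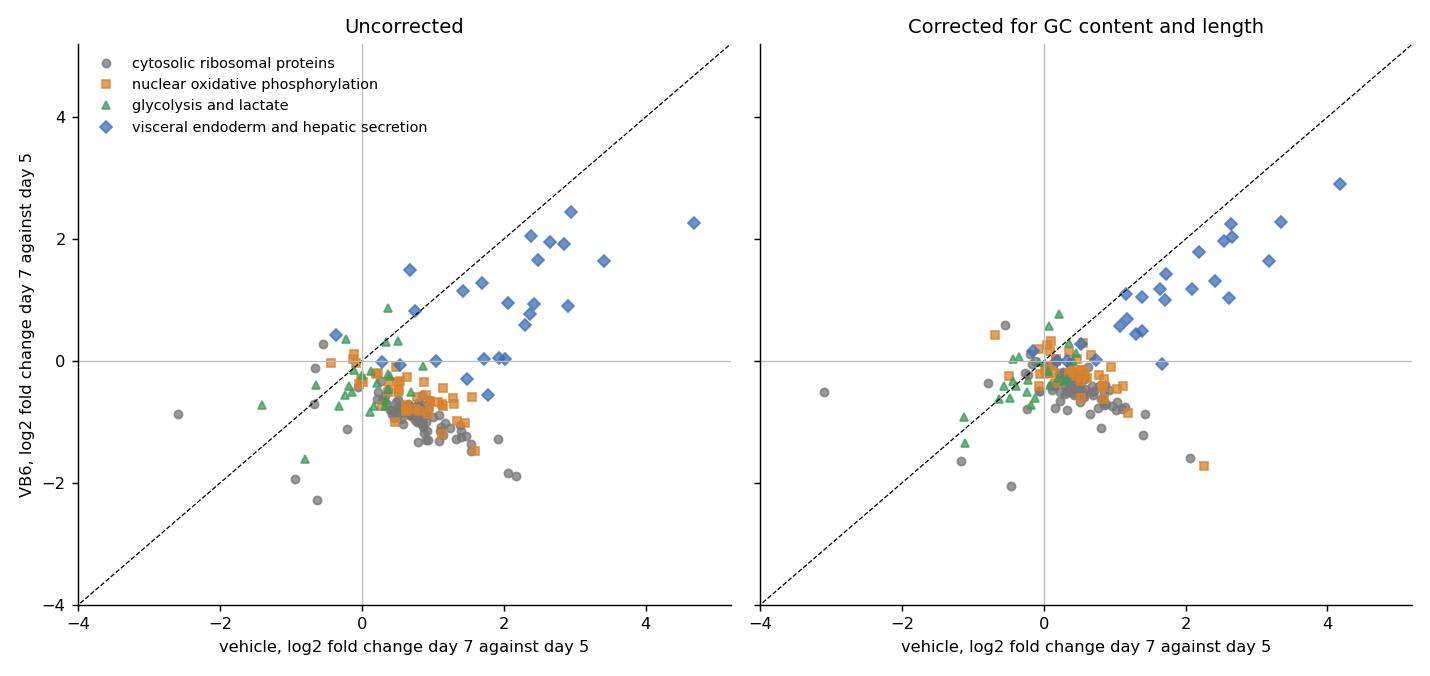
Log2 fold change of day 7 against day 5 with VB6 (y axis) against the same with vehicle (x axis) for the members of 4 gene lists, uncorrected (left) and corrected (right); the dashed line marks equal change. Ribosomal (grey) and respiratory (orange) genes lie at the lower right, below 0 with VB6 and above 0 with vehicle, and nearer to 0 after correction; most genes of visceral endoderm and hepatic secretion (blue) lie above 0 in both courses and below the line.

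Most genes of a list that joins the interferon response, antigen presentation and the immunoproteasome fell. In this list 6 of 27 genes tested rose and 17 fell (5 and 17 corrected), with a median log2 fold change -0.81, -0.54 corrected. Irf1, an interferon-induced transcription factor, fell from 97.3, 101 and 112 CPM at day 5 to 18.3, 24.97 and 23.3 CPM at day 7 (log2 fold change -2.22 ± 0.1 (SE), -2.06 corrected, adjusted p = 2.5e-14). Psmb10, a catalytic subunit of the immunoproteasome, fell from 31.9, 32.5 and 29.1 CPM at day 5 to 3.62, 4.67 and 5.53 CPM at day 7 (log2 fold change -2.75 ± 0.12 (SE), -2.12 corrected). The proteasome activator genes Psme1, from 128, 129.5 and 129 CPM at day 5 to 52.5, 58.3 and 60.8 CPM at day 7 (log2 fold change -1.17 ± 0.06 (SE), -0.79 corrected), and Psme2 (-1.39, -1.02 corrected) fell too, and none of these libraries overlapped between days. In the vehicle course 14 of the 27 genes were called higher and 2 lower (9 and 7 corrected), and the difference between the courses was called lower in both fits for 14 genes and higher for none, against 18% and 9.21% of all genes.

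The sequence around the start of these genes is shown because many interferon-responsive genes carry an interferon-stimulated response element, searched here as GAAANNGAA. Promoter sequences (250 bases before to 50 after the gene start, GRCm38.p6) came from RefSeq for 25 of the 27 genes, and both strands were searched. The motif was in 12 of 25 promoters (48%), against 8.36% of 12201 promoters of genes tested and 9.76% of 27025 promoters in the table. In 4 of the 12, Psme1, Bst2, Irgm1 and B2m, it reads as follows, with the match in capitals (in Bst2 and Irgm1 a pair of overlapping matches, in Psme1 on the reverse strand). The match begins at base 11 of the gene in Psme1, and before the gene start in Bst2, Irgm1 and B2m. Bst2, Irgm1 and B2m were chosen after their values were seen.
Psme1 (chr14:55578244-55578543, + strand): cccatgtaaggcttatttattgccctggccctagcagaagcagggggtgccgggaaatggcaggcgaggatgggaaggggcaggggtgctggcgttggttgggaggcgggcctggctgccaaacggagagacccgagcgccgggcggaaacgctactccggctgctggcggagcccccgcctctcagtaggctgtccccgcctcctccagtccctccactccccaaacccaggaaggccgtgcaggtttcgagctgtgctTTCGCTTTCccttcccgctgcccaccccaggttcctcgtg
Bst2 (chr8:71537423-71537722, - strand): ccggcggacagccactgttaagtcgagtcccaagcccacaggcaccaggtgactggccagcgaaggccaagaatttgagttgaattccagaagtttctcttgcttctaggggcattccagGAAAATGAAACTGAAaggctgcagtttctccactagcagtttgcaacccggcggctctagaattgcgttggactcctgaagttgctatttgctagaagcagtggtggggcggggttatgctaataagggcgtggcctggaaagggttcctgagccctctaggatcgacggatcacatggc
Irgm1 (chr11:48871371-48871670, - strand): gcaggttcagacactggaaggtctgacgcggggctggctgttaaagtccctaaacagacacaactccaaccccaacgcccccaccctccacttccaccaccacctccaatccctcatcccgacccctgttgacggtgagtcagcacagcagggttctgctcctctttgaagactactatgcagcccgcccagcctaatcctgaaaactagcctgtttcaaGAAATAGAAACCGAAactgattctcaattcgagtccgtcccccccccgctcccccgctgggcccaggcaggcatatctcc
B2m (chr2:122147437-122147736, + strand): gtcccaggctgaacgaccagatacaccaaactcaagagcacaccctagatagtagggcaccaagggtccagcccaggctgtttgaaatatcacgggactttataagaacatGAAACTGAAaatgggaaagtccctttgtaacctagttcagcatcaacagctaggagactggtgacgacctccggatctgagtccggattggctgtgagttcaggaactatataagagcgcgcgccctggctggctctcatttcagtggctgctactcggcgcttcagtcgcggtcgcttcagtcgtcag

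Whether the change differed with the motif was not tested. Of the 12 genes with the motif, 6 fell and 3 rose (6 and 4 corrected), and of the 13 without it 10 fell and 2 rose (10 and 1 corrected). Bst2, which encodes the antiviral membrane protein tetherin, fell from 164, 160.2 and 139.7 CPM at day 5 to 50.4, 51.6 and 49.4 CPM at day 7 (log2 fold change -1.62 ± 0.1 (SE), -0.98 corrected). Irgm1, an interferon-induced GTPase, fell from 13.9, 14.1 and 16.8 CPM at day 5 to 4.4, 5.91 and 5.9 CPM at day 7 (log2 fold change -1.46 ± 0.14 (SE), -1.62 corrected). B2m, the light chain of class I molecules, rose from 71.98, 63.2 and 56.1 CPM at day 5 to 119, 115 and 118 CPM at day 7 (log2 fold change 0.87 ± 0.09 (SE), 1.05 corrected), against the direction of the list. A second motif, the GAS-type sequence TTCNNNGAA, was in 6 of these 25 promoters and in 9.55% of all.

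Among visceral endoderm genes, Afp held a match to GTTAATNAT, an HNF1-type sequence, in its promoter. RefSeq held 20 promoters of list members that were tested. Those of Afp and Fga had a match (10%), against 0.549% of promoters of genes tested and 0.94% of all promoters. Alb, the albumin gene, is in the list but was not among the genes tested, and its promoter had a match as well. The HNF4-type sequence CAAAGTCCA was in none of the 20 and in 0.555% of all. The Afp promoter is shown because it holds this match, which begins 105 bases before the start.
Afp (chr5:90490464-90490763, + strand): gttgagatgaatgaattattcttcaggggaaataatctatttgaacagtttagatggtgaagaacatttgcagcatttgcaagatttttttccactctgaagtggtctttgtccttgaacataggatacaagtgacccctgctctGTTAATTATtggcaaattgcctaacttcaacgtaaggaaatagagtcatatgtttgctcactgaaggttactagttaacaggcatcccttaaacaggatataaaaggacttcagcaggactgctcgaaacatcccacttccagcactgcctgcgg

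Most imprinted genes rose. In this list 18 of 24 genes tested rose and 2 fell (19 and 2 corrected), with a median log2 fold change 0.89, 0.92 corrected. Igf2 (chr7:142650766-142666816), the fetal growth factor, rose from 322, 304 and 312 CPM at day 5 to 1812, 1566 and 1894 CPM at day 7 (log2 fold change 2.49 ± 0.09 (SE), 2.58 corrected, adjusted p = 2.2e-15). Mest rose from 23.1, 23.4 and 23.5 CPM at day 5 to 197, 233 and 289 CPM at day 7 (log2 fold change 3.36 ± 0.11 (SE), 3.32 corrected), and the paternally expressed genes Peg10 (1.82, 1.49 corrected) and Peg3 (1.22, 0.93 corrected) rose as well. Plagl1, an imprinted zinc finger factor, went from 1.57, 1.1 and 1.12 CPM at day 5 to 9.82, 10.5 and 11.5 CPM at day 7 (log2 fold change 3.07 ± 0.23 (SE), 3.17 corrected), and with vehicle it changed by 0.67 (0.34 corrected, not called). Of 41 cell cycle genes, 12 were higher and 14 lower (15 and 16 corrected), again near the 27.3% of all genes called each way. Ccnd2, cyclin D2, rose from 24.9, 21.9 and 19.4 CPM at day 5 to 99.8, 94.8 and 89.03 CPM at day 7 (2.1, 1.99 corrected), and Cdkn1c, an imprinted inhibitor of cyclin-dependent kinases, rose (1.72, 2.23 corrected), while Cdc20, an activator of the anaphase-promoting complex, fell (-0.7, -0.52 corrected). Mki67, a proliferation marker, was called higher in the uncorrected fit and not after correction (0.37, 0.04 corrected). Replication-dependent histone genes fell in 21 of 46 and rose in 1 (13 and 2 corrected) at low counts. The CPM of the 46 genes together did not fall, at 212.7 to 218 at day 5 and 204.9 to 232.7 at day 7. Their transcripts lack a poly(A) tail and their copies are similar, so these counts are uncertain.

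Stress-related groups held calls in both directions. Over all genes tested, 27.3% were called higher and 27.3% lower (27.5% and 27.1% corrected). Of 18 genes of the ATF4 amino acid response, 2 rose and 15 fell (1 and 11 corrected). Ddit4, an inhibitor of mTOR, fell from 389, 392 and 375 CPM at day 5 to 186, 202 and 182 CPM at day 7 (-1.02, -0.71 corrected), and Slc7a5, a leucine transporter, fell (-0.64, -0.53 corrected), but Psat1, a serine synthesis enzyme, rose (0.54, 0.39 corrected). Of 19 hypoxia genes outside glycolysis, 10 were higher and 2 lower (11 and 2 corrected), with P4ha1, a collagen prolyl hydroxylase, going from 227, 217 and 208 CPM at day 5 to 481, 439 and 385 CPM at day 7 (1.0, 0.8 corrected), Mxi1 rising (0.75, 0.75 corrected) and Higd1a, a mitochondrial protein, falling (-1.05, -1.06 corrected). Of 19 immediate early genes, 9 were higher and 3 lower (11 and 2 corrected): Fos rose from 12.3, 15.6 and 21.2 CPM at day 5 to 50.1, 42.4 and 46.4 CPM at day 7 (1.51, 1.68 corrected), Fosb (1.76, 1.86 corrected) and Atf3 (0.75, 0.8 corrected) rose, and Ier2 fell (-0.72, -0.24 corrected). Among apoptosis and p53 genes, 10 rose and 12 fell of 24 (9 and 12 corrected). Bax, a pore-forming death effector, fell (-0.99, -0.38 corrected), as did Mcl1, a survival protein (-0.46, -0.42 corrected), Aen (-0.69, -0.55 corrected) and Phlda3 (-0.81, -0.4 corrected). Chaperones were split, with Hspb1 (-1.35, -0.64 corrected) and Hspe1 (-0.91, -0.58 corrected) lower and Pdia3 (0.58, 0.49 corrected) higher. Of 24 glutathione genes, 14 were lower and 2 higher (9 and 7 corrected), with Gclm (-1.0, -1.04 corrected, but 0.35 higher on TPM values), Gclc (-0.56, -0.68 corrected) and Gpx4 (-0.81, -0.21 corrected) lower and Gpx3, a secreted peroxidase, higher (1.4, 1.62 corrected). Of 24 cholesterol genes, 11 were higher and 5 lower (12 and 3 corrected), with Sc5d (0.96, 0.76 corrected) and Insig1 (0.7, 0.51 corrected) rising.

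**Figure D5:**
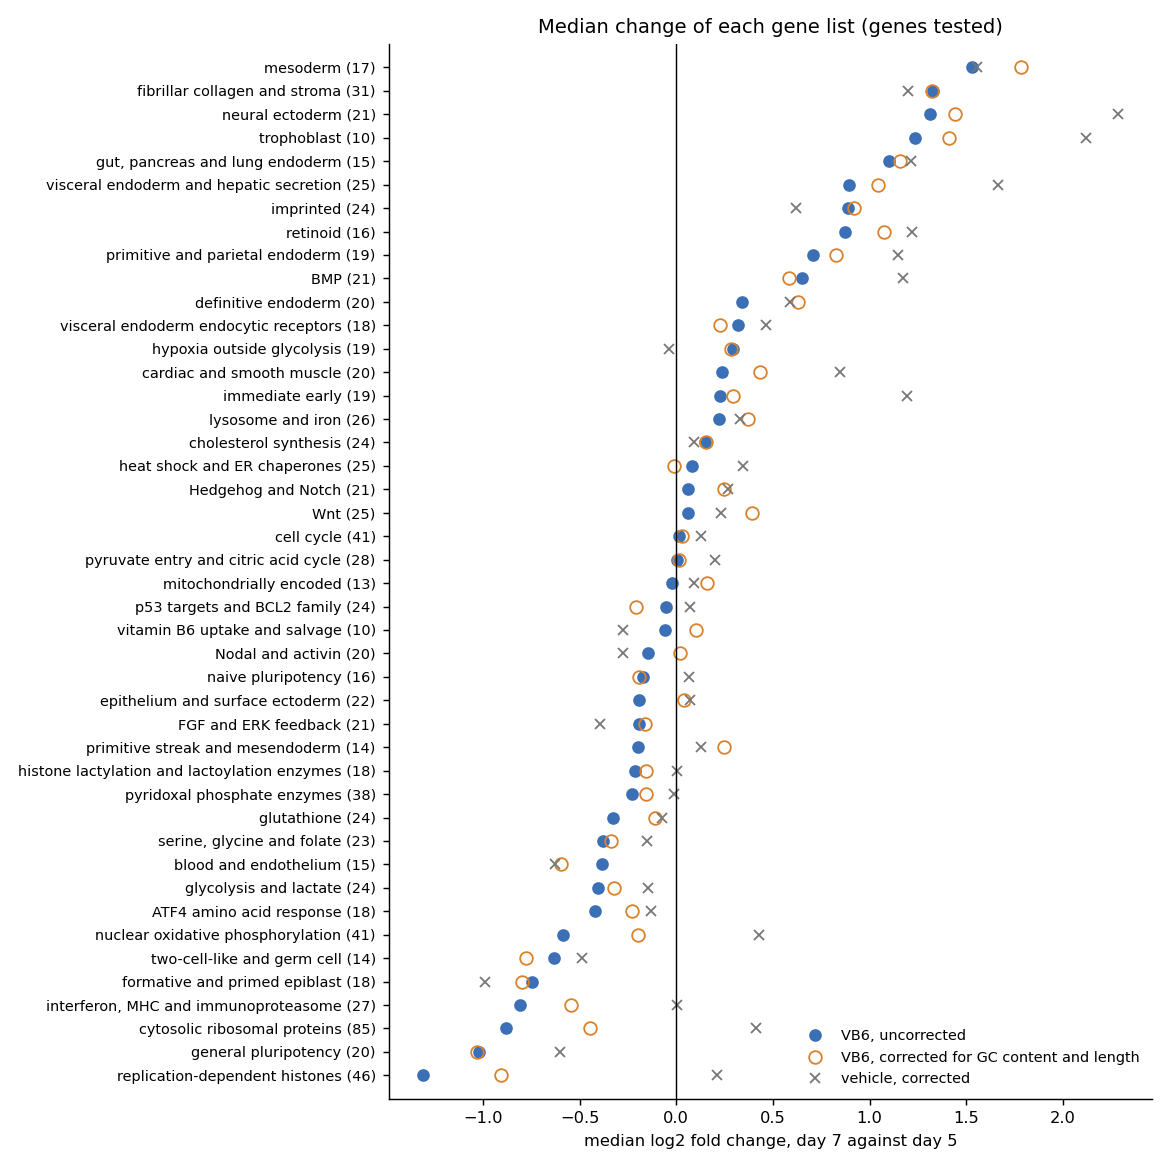
Median log2 fold change of day 7 against day 5 (x axis) in all but 1 of the gene lists with at least 10 genes tested, for VB6 uncorrected (filled), VB6 corrected (open) and vehicle corrected (crosses); the number of genes tested is in parentheses. Mesoderm, stroma, neural and endoderm lists lie to the right and pluripotency, ribosomal and histone lists to the left, with the ribosomal median at -0.88 uncorrected and -0.45 corrected.

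The vehicle course over the same days shares no library with this comparison, and the difference between the courses was tested as an interaction. From day 5 to day 7, 12526 genes (66.3%) were called with vehicle. The change with VB6 differed from that with vehicle for 10910 genes (57.7%), 5096 in the higher direction (27%) and 5814 in the lower (30.8%). After correction 7288 genes were called (41.9%), 2501 higher (14.4%) and 4787 lower (27.5%), and 1602 and 3136 genes were called in the same direction in both fits (9.21% and 18% of 17398). On TPM values 75.5% of these calls were in the higher direction, against 46.7% on counts and 34.3% corrected, so the balance of directions rests on the scale. In both courses 2206 genes rose and 1745 fell (3120 and 2084 corrected). Calls in opposite directions that held in both fits were 292 genes higher with VB6 and lower with vehicle, and 831 the other way.

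Several endoderm products rose less from day 5 to day 7 with VB6 than with vehicle. Of 25 genes of visceral endoderm and hepatic secretion, the difference was called lower in both fits for 11 and higher for none, against 18% and 9.21% of all genes. For some of them the day 5 means were higher with VB6. Afp had 266 ± 35.8 CPM (SD, n = 3 libraries) with VB6 and 140.3 ± 20.7 CPM with vehicle, and 1439 ± 261 and 1080 ± 7.72 CPM at day 7. Trf had means of 49.5 and 20.6 CPM at day 5 and 187 and 149 CPM at day 7, in the same order. Apob, also in the list, had a lower day 5 mean with VB6 (921 CPM) than with vehicle (977 CPM). The change of Afp differed by -0.51, -1.07 corrected, Trf by -0.94, -0.61 corrected, Ttr by -1.49, -1.58 corrected and Apoa1 by -1.89, -0.91 corrected. The change of Sox17 with vehicle was 1.96 (1.37 corrected), and the difference was -1.97, -0.99 corrected. The starting level in uncorrected CPM was not equal: mean Sox17 was 32.5 ± 4.15 CPM (SD, n = 3 libraries) at day 5 with VB6 and 10.5 ± 1.49 CPM with vehicle, and 32.3 ± 1.11 and 40.9 ± 4.89 CPM at day 7. All levels in this paragraph are uncorrected, and vehicle day 5 was the group with the shortest fragments. Its part in these day 5 gaps was not tested. Among pluripotency genes the fall of Pou5f1 was larger with VB6 (-1.18, -0.45 corrected), and for Nanog the difference was 0.53, -0.01 corrected, not called after correction. Sox2 fell with VB6 and rose with vehicle (0.76, 0.78 corrected), a difference of -1.75, -1.79 corrected. Of 20 muscle genes, the difference was lower in both fits for 13 and higher for none, such as Acta2 (-1.13, -1.15 corrected) and Myh7 (-1.72, -1.36 corrected). It was lower for Col1a1 (-2.34, -2.19 corrected) and Sox1 (-2.29, -1.87 corrected) too. Of 19 hypoxia genes outside glycolysis, the difference was higher for 7 and lower for 1 in both fits. Mest (1.05, 1.0 corrected) and Plagl1 (2.39, 2.84 corrected) rose more with VB6, and for Pkm the difference was -0.95, -0.55 corrected.

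Some of the largest changes were in genes with near-identical copies elsewhere in the genome, and these tracked the short-fragment groups. Ftl1-ps1, a copy of the ferritin light chain gene, went from 225, 233 and 193 CPM at day 5 to 2.77, 4.44 and 3.88 CPM at day 7 (log2 fold change -5.87 ± 0.22 (SE), -5.43 corrected), and vehicle day 5 had 8.82 CPM while the remaining groups had 129.4 to 232.1 CPM. Srp54b, one of several copies of a signal recognition particle gene, went from 16.7, 20.3 and 20.6 CPM at day 5 to 0.964, 0.169 and 0.159 CPM at day 7 (log2 fold change -5.51 ± 0.43 (SE), -5.77 corrected). Erhrt-ps had 15.9, 12.9 and 12.8 CPM at day 5 and no counts at day 7. Exosc6, an exosome subunit not known here to have a copy, had 9.4, 10.6 and 10.9 CPM at day 5. It had 0, 0.619 and 0.319 CPM at day 7, with 0.322 CPM in vehicle day 5 and 0 in ES. The annotated span of Exosc6 lies within that of Aars1 on the same strand. Its counts may be divided with Aars1, which was not tested. Leaving out VB6 day 7 library 1 gave -6.81 for Srp54b, and leaving out VB6 day 7 library 2 gave -5.87 for Exosc6. In all, 16 of the 18901 genes tested had means in both VB6 day 7 and vehicle day 5 more than 4-fold below each of the other 5 groups, and 13 genes more than 4-fold above (highest mean at least 5 CPM). These 29 genes include 1 ribosomal protein pseudogene in each set and 6 genes annotated as protein-coding, and all 29 were called without correction. Their values are uncertain because the deposited counts may divide reads between copies, and what sets both groups apart was not tested.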

How the data were processed

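Total RNA of E14 cells was sequenced in 21 libraries, per the labels, although the extraction text in the labels also speaks of small RNA enrichment. The authors deposited estimated (expected) counts, TPM and FPKM per gene for each library. Reads were aligned to mm10, per the submitters' processing notes; the aligner, counter and annotation release were not given in the sources used here. Of 78317 gene rows, 21909 carry no symbol, and 26781 identifiers, with 1.9% of counts, were not in the GENCODE M21 annotation used for coordinates, GC content and length.

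The deposited expected counts were rounded to whole numbers, which moved the total by 0.0002446%, and tested with edgeR 4.0.16 in R 4.3.3 (quasi-likelihood test, TMM scaling, filterByExpr, 18901 genes). All 21 libraries entered each fit. CPM are counts scaled to the TMM-adjusted library size; sums over markers use the plain total. Adjusted p-values are Benjamini-Hochberg values over all genes tested, with a threshold of 0.05. The corrected fit adds, per library, smooth functions (5 degrees of freedom each) of GC content and log length as an offset, for 17398 genes (92%). The deposited TPM were tested with limma 3.58.1 on log2(TPM + 1); these fold changes understate the change of low genes. The deposited FPKM served to compute effective lengths. DESeq2 1.42.0, other filters, a replicate block and leaving out libraries were alternatives. The fits were tested on simulated data.

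The comparison, the 46 gene lists and the tests were chosen with earlier results of these data known. Named genes are the 12 with the largest rise and the 12 with the largest fall among those called alike in both fits, protein-coding, with at least 5 CPM in the higher group and no overlap; up to 4 members of each list with the smallest p; a set of fixed lineage and pathway genes; and the 6 highest and 6 lowest differences from the vehicle course. Some genes that this rule names are not reported here. Genes with no counts are limited by a floor of 3 counts per library, which covers counting error only. Promoter motifs were searched in RefSeq promoters (GRCm38.p6); longer 10-base forms of the HNF1-type and interferon-type motifs were searched before the 9-base forms given.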

Additional observations from a re-analysis of the deposited data

Results flagged for a closer look

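Each result here is a gene whose change from day 5 to day 7 differed between VB6 and vehicle, by edgeR's test of the difference, and whose groups moved in opposite directions or had the largest such differences. Sox2, the pluripotency and neural factor, fell with VB6 and rose with vehicle, a log2 difference of -1.75, -1.79 corrected. Plagl1, the imprinted factor, had a difference of 2.39, 2.84 corrected. Its mean in VB6 day 5 was 1.265 CPM against 3.37 CPM in vehicle day 5, and in VB6 day 7 it was 10.6 CPM against 5.38 CPM in vehicle day 7. On each day the higher mean was in the group with short fragments, and the part of fragment length was not tested. S100g, a calcium-binding protein of absorptive epithelia, rose far more with vehicle (mean 1.06 to 36.98 CPM) than with VB6 (8.32 to 11.6 CPM), a difference of -4.64, -4.09 corrected, and its rise with VB6 was called after correction (0.47, 0.98 corrected; edgeR adjusted p = 7.2e-05 corrected) and, without correction, when the first VB6 day 5 library was left out (log2 fold change 0.83, edgeR adjusted p = 0.005). Adarb2, an RNA-editing enzyme homologue, fell with vehicle (-3.23) and was called lower with VB6 only after correction (-0.3, -0.63 corrected), a difference of 2.93, 2.15 corrected. Zfp268 (2.05, 0.55 corrected) and Zfy1 (2.02, 0.82 corrected), both zinc finger genes, fell with vehicle and were called in neither fit with VB6.

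Exosc6 and members of families with similar copies make up the rest, and their values are uncertain. Rnaset2b differed by 4.98, 5.34 corrected and Commd1b by 3.92, 3.14 corrected; both were highest in VB6 day 7 and vehicle day 5, the groups with short fragments. Without VB6 day 5 library 2 or library 3 the VB6 change of Commd1b was not called (log2 fold change 1.94 and 1.33, edgeR adjusted p = 0.055 and 0.085), and without library 1 it was 2.61. Or2y16, an olfactory receptor gene, differed by -4.98, -5.44 corrected, with means of 163 CPM (day 5) and 19.04 CPM (day 7) under VB6, and 14.2 CPM at day 5 under vehicle. Ftl1-ps1 (-9.99, -9.05 corrected), Srp54b (-12.23, -13.32 corrected) and Exosc6 (-9.91, -8.12 corrected) were near 0 in the same groups. For Erhrt-ps the fitted difference was -17.21, -17.42 corrected, a size that depends on the prior count because VB6 day 7 had no counts. The part of fragment length in these values was not tested.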

How the results depend on the processing

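The count of genes called between day 5 and day 7 stayed between 8711 and 10421 under the alternatives to 10309 other than leaving out a library, and between 9348 and 9709 without any 1 of the 6 libraries (4692 to 4839 higher, 4649 to 4882 lower). The corrected count was 8680 to 8965 without 1 library, and the count of differences from vehicle 10313 to 10750. On the log2(TPM + 1) scale with limma 7886 genes were called higher and 2535 lower. The difference from vehicle gave 7255 genes with the replicate block and the correction together, close to 7288 with the correction alone. The cause was not tested. The replicate block moved the main count to 10213 genes, or 9476 with the correction; the numbers were not taken to pair the libraries, since same-numbered libraries of the pair of days correlated by 0.04, 0.07 and 0.12 in their deviations from group means, and 2 of the 3 correlated best with their own number.

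Of 3735 values of the 221 genes named by rule under the alternatives, 29 lost the call, 17 gained it and 14 reversed. A reversal was counted only where the main or the alternative fit called the gene. The other 3675 kept their side of the threshold and, where called, their direction. On TPM values the reversals included Zfp268 at 0.28, Pdk1 at 0.077, Idh3a at 0.16, Gclm at 0.35, Ldha at 0.29 and Slc2a1 at 0.045. Ldha was 0.015 with the length correction alone. Sox17 was 0.38 with the correction, with or without the replicate block, and 0.27 with GC content alone. Ep300 was -0.25 with the correction, with or without the block, and -0.16 with length alone. Genes under about 1 CPM at day 5, such as Postn and Kdr, rest on few counts, which limits the precision of their fold changes.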

Other observations

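Lysosome and iron genes were mostly higher at day 7, with 17 of 26 called higher and 2 lower (18 and 3 corrected). Steap3, a metalloreductase of endosomal iron uptake, went the other way, from 14.3, 14.4 and 15.4 CPM at day 5 to 2.95, 4.39 and 3.83 CPM at day 7 (log2 fold change -1.98 ± 0.13 (SE), -1.86 corrected). Slc39a8, a zinc and manganese transporter, rose from 69.5, 73.9 and 69.9 CPM at day 5 to 169.5, 151 and 136 CPM at day 7 (log2 fold change 1.09 ± 0.09 (SE), 0.83 corrected). Cryab, a small heat shock protein of lens and muscle, rose from 20.6, 20.9 and 20.6 CPM at day 5 to 61.3, 54.5 and 64.1 CPM at day 7 (log2 fold change 1.53 ± 0.12 (SE), 1.95 corrected).

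Of 15 blood and endothelium genes, 4 were higher and 7 lower (4 and 6 corrected), with a median log2 fold change of -0.39, -0.59 corrected. Flt1, a receptor of vascular endothelial growth factor, rose from 34.8, 31.9 and 32.8 CPM at day 5 to 107, 114 and 95.5 CPM at day 7 (log2 fold change 1.67 ± 0.09 (SE), 1.44 corrected) and Gata2 rose from 1.9, 2.35 and 2.5 CPM at day 5 to 5.54, 4.84 and 5.68 CPM at day 7 (log2 fold change 1.25 ± 0.21 (SE), 1.6 corrected), while Eng, endoglin, fell from 12.2, 13.2 and 16.6 CPM at day 5 to 4.34, 4.39 and 4.94 CPM at day 7 (log2 fold change -1.61 ± 0.16 (SE), -1.52 corrected). Several transcription factors of organ formation rose: Sox9, of cartilage, gonad and gut, from 0.783, 0.96 and 1.38 CPM at day 5 to 4.76, 4.44 and 5.37 CPM at day 7 (2.23, 2.03 corrected), Prox1, of lymphatic vessels, liver and lens, from 9.9, 9.98 and 7.44 CPM at day 5 to 18.4, 21.4 and 18.8 CPM at day 7 (1.1, 0.84 corrected), and Mef2c, of muscle and heart, from 0.112, 0.096 and 0.188 CPM at day 5 to 3.43, 2.08 and 4.62 CPM at day 7 (4.65, 4.41 corrected).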
